A study of Mus musculus with 12 samples.

Results

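The data described here are 6 RNA-seq libraries labelled as oligodendrocyte precursor cells (OPCs) from mouse cortex, 3 from controls (ctl) and 3 from double knockouts (dKO), out of 12 libraries in the series. The comparison was made on 17364 of the 30165 genes in the deposited table, those whose normalized counts averaged 10 or more. In dKO mice, floxed alleles of Cacna1c and Cacna1d, which encode the pores of the L-type calcium channels Cav1.2 and Cav1.3, were recombined by NG2-CreERT2, a tamoxifen-inducible recombinase expressed from the Cspg4 (NG2) locus. The ctl mice are labelled WT, and neither the labels nor the study's methods state whether they carried the recombinase or floxed alleles. The tissue of both groups was cortex, and the labels give neither the age at isolation nor the sex. The study's methods describe tamoxifen given early after birth or, for another experiment, to older mice, and do not state whether the ctl mice of these libraries received it. Magnetic beads directed at CD140, NG2 and O4 selected the cells, and each library pooled 2 mice. NG2 is also made by pericytes, so recombination by this driver need not be limited to OPCs.

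OPCs are the dividing cells of the oligodendrocyte lineage. They carry the receptor of platelet-derived growth factor, Pdgfra, and the proteoglycan NG2, and they receive synapses from neurons through glutamate and GABA receptors. When they differentiate, they pass through a committed, premyelinating stage and then make myelin, a membrane rich in cholesterol and galactolipids that myelin basic protein, Mbp, helps to compact. L-type calcium channels carry part of the calcium that enters OPCs upon depolarization.

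The markers of the sorted cells were examined first, as levels per gene length (RPKM, reads scaled to the length of the gene and to library size, computed here from the counts). The OPC markers were detected in every library. Pdgfra had 4.36, 11.7 and 7.26 in ctl and 9.83, 18.6 and 7.25 in dKO libraries. Cspg4, the gene of NG2, had 2.71, 3.91 and 3.75 in ctl and 3.64, 4.50 and 3.30 in dKO libraries. Olig1, a transcription factor of the whole lineage, had 281, 416 and 346 in ctl and 407, 339.8 and 198 in dKO libraries. The dKO and ctl libraries overlapped for each of these genes, and dKO replicate 2 had the highest Pdgfra of the 6. Transcripts of myelinating cells were far more abundant. The mean of Mbp was 321 times that of Pdgfra and 867 times that of Cspg4, and Mbp held rank 7 of all tested genes at 3154 RPKM. Ttr, the transthyretin of choroid plexus epithelium, held rank 1 at 12577 RPKM. The libraries thus held the defining OPC transcripts beside a much larger amount of mature oligodendrocyte RNA, and the beads against O4, an antigen of late progenitors and of oligodendrocytes, were part of the sort. They are called OPC libraries below, after their label.

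Total counts per library ranged from 14935963 to 19812274, the number of genes with a read from 25187 to 26146 in ctl and from 24274 to 25141 in dKO libraries, and the common coefficient of variation between libraries of a group was 20.5%. dKO replicate 2 stood apart in its sex-linked genes. Xist, the RNA that silences an X chromosome in female cells, had normalized counts of 8.75, 20.2 and 10.4 in ctl and 2.93, 13595 and 8.56 in dKO libraries, and the Y-linked Ddx3y had 2467, 2302 and 2502 in ctl and 2141, 0 and 2456 in dKO libraries. Values without this library are given below beside many of the lists and genes.

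The targeted genes were low in all libraries. Cacna1c (ENSMUSG00000051331, chromosome 6 from 118564201 to 119173851 in the deposited coordinates) had RPKM values of 0.975, 1.08 and 1.15 in ctl and 0.660, 0.881 and 0.817 in dKO libraries. The groups did not overlap, dKO being lower, and the log2 fold change and its standard error were -0.44 ± 0.15. Cacna1d (ENSMUSG00000015968, chromosome 14 from 29761896 to 30213412) had RPKM values of 0.946, 0.718 and 0.960 in ctl and 0.350, 0.578 and 0.875 in dKO libraries, and the groups overlapped, with dKO replicate 3 inside the ctl range. The counts are of whole genes, and removal of part of a gene need not lower them. Across all genes, edgeR's quasi-likelihood test gave an adjusted p under 0.05 for 1 gene, 0.00576% of those tested. That gene, 1520401A03Rik (ENSMUSG00000043747, chromosome 17 from 23923462 to 23941757), fell from normalized counts of 547, 580.0 and 500.4 in ctl to 6.84, 2.72 and 8.56 in dKO libraries, with a log2 fold change of -6.49 ± 0.28 and an edgeR adjusted p of 0.00011. For every other gene the edgeR adjusted p was 0.0714 or more, so the differences described in the rest of the text did not pass the test gene by gene, and DESeq2 on the same genes gave 293 (1.69%), 186 higher (1.07%) and 107 lower (0.616%). An unadjusted p under 0.05 in edgeR, used below only to count members of gene lists against the rest of the genome, was reached by 2003 genes, 11.5% of those tested, with 6.27% higher and 5.27% lower in dKO libraries. The normalized counts of the groups did not overlap for 2944 genes (17.0%), of which 1286 were higher (7.41%) and 1658 lower (9.55%).

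To describe these differences by function, 1209 tested genes were placed in 5 classes made of 33 lists, some of which share members. The classes did not move alike. The immune class had the largest median, a log2 fold change of 0.53, with 245 of 290 tested members higher in dKO libraries. The glial class followed with 0.36 and 104 of 135 members higher. The medians of the cell adhesion class (0.16, 257 of 383 higher) and the ion channel class (0.11, 161 of 268 higher) were nearer to the median of all genes, 0.0055, with 50.8% of genes higher. The myelin and lipid class had a median of -0.17, with 118 of 182 members lower. The share of members at an unadjusted p under 0.05 was 39.7% in the immune class (115 higher, 0 lower), 34.8% in the glial class (44 higher, 3 lower), 25.3% in the myelin and lipid class (8 higher, 38 lower), 16.7% in cell adhesion (46 higher, 18 lower) and 16.0% in ion channels (26 higher, 17 lower), beside 10.6% in the genes of none of the 5 classes (863 higher, 842 lower). Without dKO replicate 2 these counts were 166 higher and 3 lower in the immune class and 11 higher and 30 lower in the myelin and lipid class. The immune count was 66 in both directions without dKO replicate 3 and 77 without ctl replicate 2, and that of the myelin and lipid class was 26 without ctl replicate 2. Fewer genes of any kind reached the threshold without ctl replicate 2. The share was then 6.34% of all genes, 26.5% of the immune class and 14.3% of the myelin and lipid class.

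**Figure D1:**
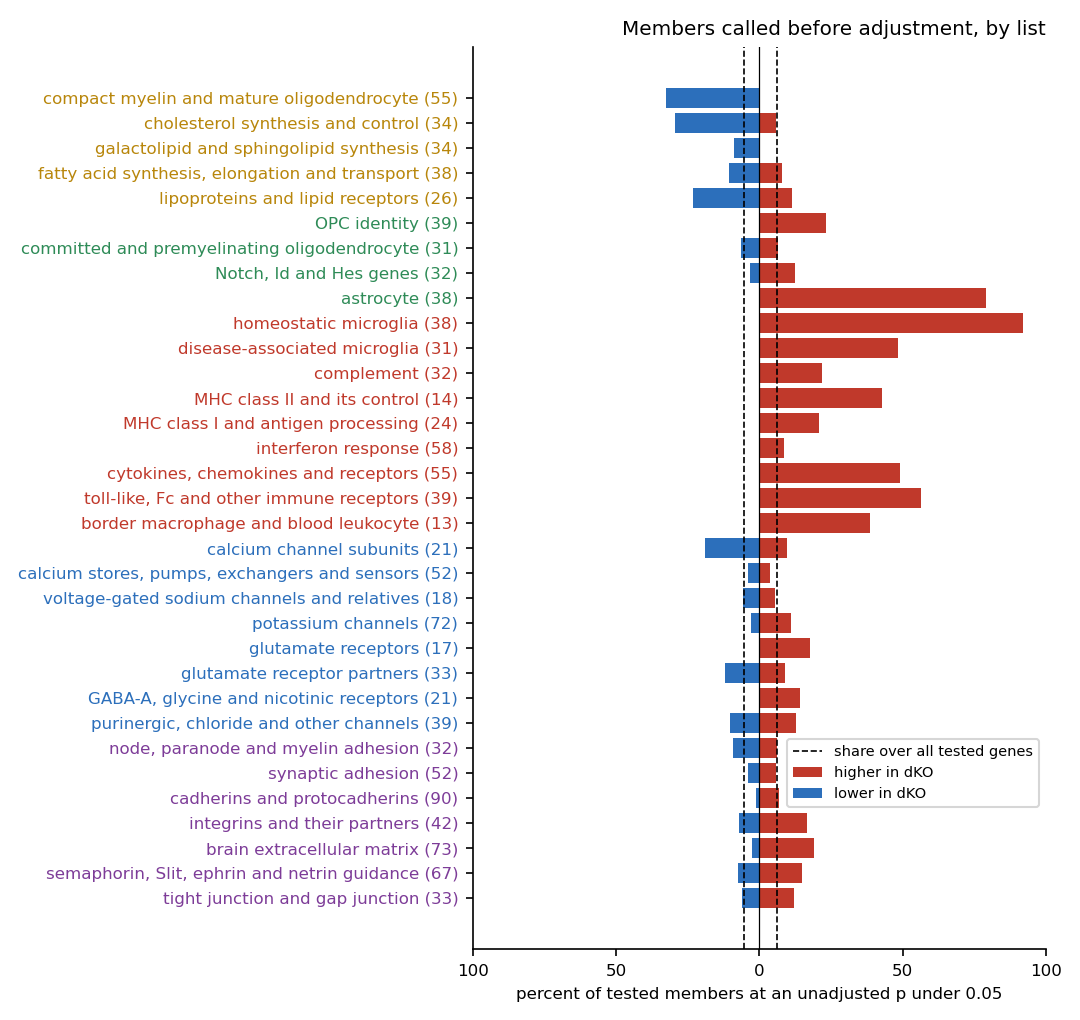
Percent of tested members of each list (number of members in parentheses) at an unadjusted p under 0.05 in edgeR, higher in dKO libraries to the right and lower to the left, with label colours for the 5 classes and dashed lines at the shares over all tested genes (6.27% and 5.27%). Bars to the right dominate in the astrocyte list and the immune lists, and bars to the left in the compact myelin and cholesterol lists.

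The classes also sat at different levels. The median member of the myelin and lipid class had 22.7 RPKM, against 10.7 in the glial, 3.19 in the immune, 2.65 in the cell adhesion and 1.83 in the ion channel class, and 3.995 over all tested genes. The class with mostly lower members was thus the most abundant by its median member, and the immune class lay below the median of all genes. Summed over all members, the immune class was 5406 to 5873 RPKM in ctl and 7106 to 7943 RPKM in dKO libraries, so that the groups did not overlap, and the ratio of the means was 1.32. Of this sum, 25.6% was ferritin heavy chain (Fth1), which oligodendrocytes also make and whose groups overlapped. The summed levels of the other classes overlapped between groups, from 22569 to 32566 RPKM in dKO and from 29311 to 34129 RPKM in ctl libraries for myelin and lipid. The glial sum overlapped although most members were higher, and the ratio of its means was 0.980.

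**Figure D2:**
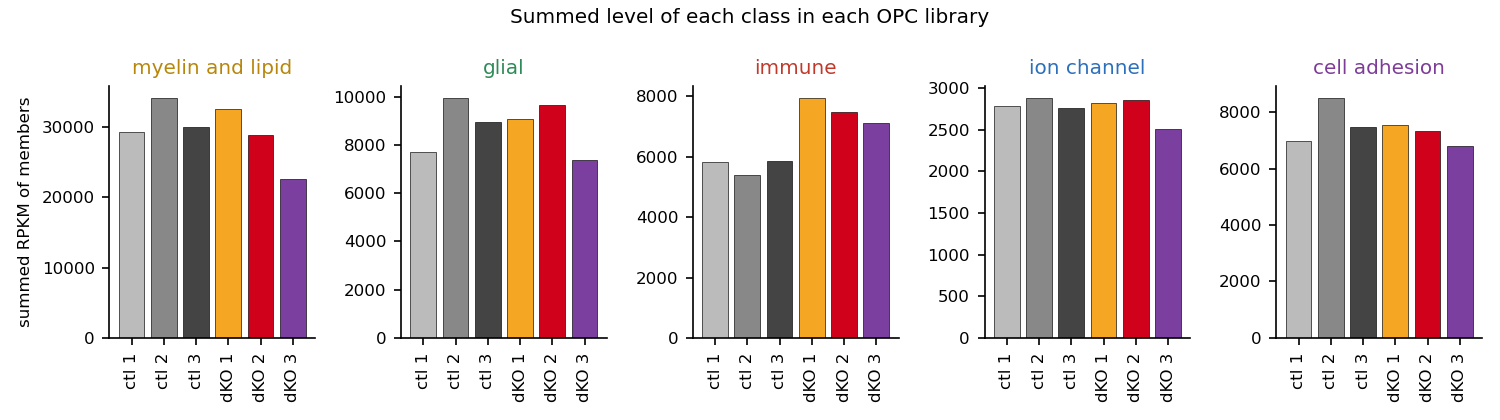
Summed RPKM of all members of each class in each of the 6 libraries, with 1 bar for each library, in greys for ctl and in colours for dKO and a separate axis from 0 for each class. The dKO bars of the immune class (7106 to 7943) all stand above the ctl bars (5406 to 5873), while in the other classes the groups overlap, and dKO 3 has the lowest bar in each of these.

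**Figure D3:**
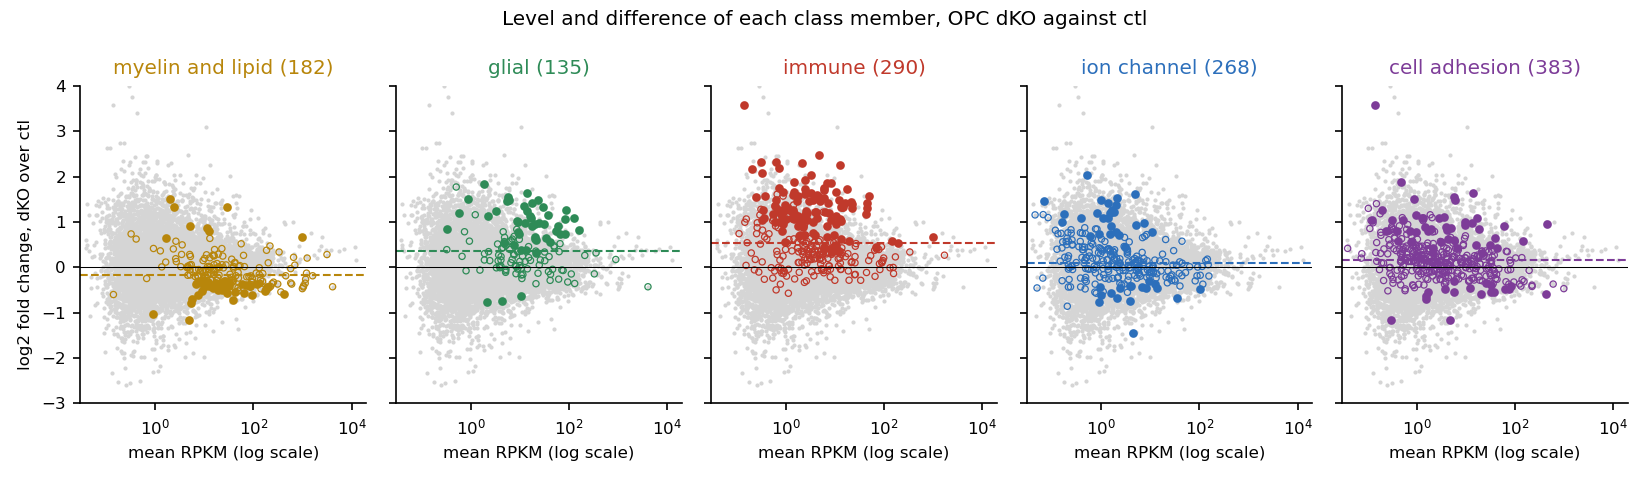
Log2 fold change (dKO over ctl) against mean level (RPKM, log scale) for the members of each class, as filled points where the unadjusted p was under 0.05 and open points otherwise, over all tested genes in grey, with a dashed line at the class median. Of all tested genes, 12 lie outside the vertical range. The 115 filled immune points lie above 0, and 38 of the 46 filled myelin and lipid points lie below 0.

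Of the 55 tested genes of compact myelin and mature oligodendrocytes, 51 were lower in dKO libraries and the median log2 fold change was -0.41. The unadjusted threshold was reached by 18 genes, all of them lower, against 5.27% of all genes, and the groups did not overlap for 17, again all lower, against 9.55%. These are abundant transcripts, with a median level of 140 RPKM. Mog, a glycoprotein on the outer surface of myelin, had RPKM values of 434, 627 and 484 in ctl and 421, 315 and 285 in dKO libraries. All dKO libraries of Mog lay below all ctl libraries (log2 fold change -0.60 ± 0.20). The smallest p of the list belonged to less abundant genes of the mature cell. Aspa, the aspartoacylase that frees acetate from N-acetylaspartate for lipid synthesis, had normalized counts of 4428, 5354 and 4962 in ctl and 3323, 3106 and 2490.5 in dKO libraries. The groups were well separated, with a log2 fold change of -0.72 ± 0.14 and an adjusted p of 0.246 in edgeR and 0.00241 in DESeq2. Slc45a3, a sugar transporter of oligodendrocytes, had 382, 441 and 429 in ctl and 273, 202 and 254 in dKO libraries and a log2 fold change of -0.78 ± 0.15. Cldn14, a claudin, had the largest difference of these genes (-1.16 ± 0.29), from 199, 295 and 243 in ctl and 161, 90.7 and 78.1 in dKO libraries. DESeq2 called these 3 genes of the list and no others.

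The members that were higher were Mbp, Mobp, Plekhb1 and Kif5a. Mbp had RPKM values of 2874, 2656 and 3007 in ctl and 4367, 3878 and 2141 in dKO libraries. Mobp, another protein of compact myelin, had RPKM values of 1209, 1096 and 1167 in ctl and 1782, 1379.7 and 839.9 in dKO libraries. For both genes, dKO replicates 1 and 2 lay above all ctl libraries and dKO replicate 3 below them, so the groups overlapped and the log2 fold changes of 0.28 ± 0.38 and 0.21 ± 0.31 were smaller than their errors. Mbp and Mobp are known for mRNAs that are carried into the processes of oligodendrocytes and translated there. Plekhb1 had the same order of libraries (0.22 ± 0.26). Without dKO replicate 1 the log2 fold changes of Mbp, Mobp and Plekhb1 were 0.081, -0.060 and 0.028. They were 0.52, 0.44 and 0.46 without dKO replicate 3. Kif5a, a motor protein, was highest in dKO replicate 2, and its dKO replicate 3 lay inside the ctl range (0.47 ± 0.22). Of the 55 members, 46 had their highest dKO value in replicate 1 and 46 their lowest in replicate 3. The members at the unadjusted threshold numbered 10 without dKO replicate 2 (median -0.37), 7 without ctl replicate 2 (median -0.25) and 30 without dKO replicate 1 (median -0.52), all of them lower, and 12 without dKO replicate 3 (median -0.26), 10 of them lower. Fewer cells of a type and less RNA per cell cannot be told apart in such bulk samples. The summed level of the 38 microglia markers was 272 to 334.5 RPKM in ctl and 410.0 to 777 RPKM in dKO libraries, and that of the 38 astrocyte markers 1589 to 2044 and 2225 to 3309 RPKM, and each of these markers had reads in every library. Their part in the myelin values was not tested.

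**Figure D4:**
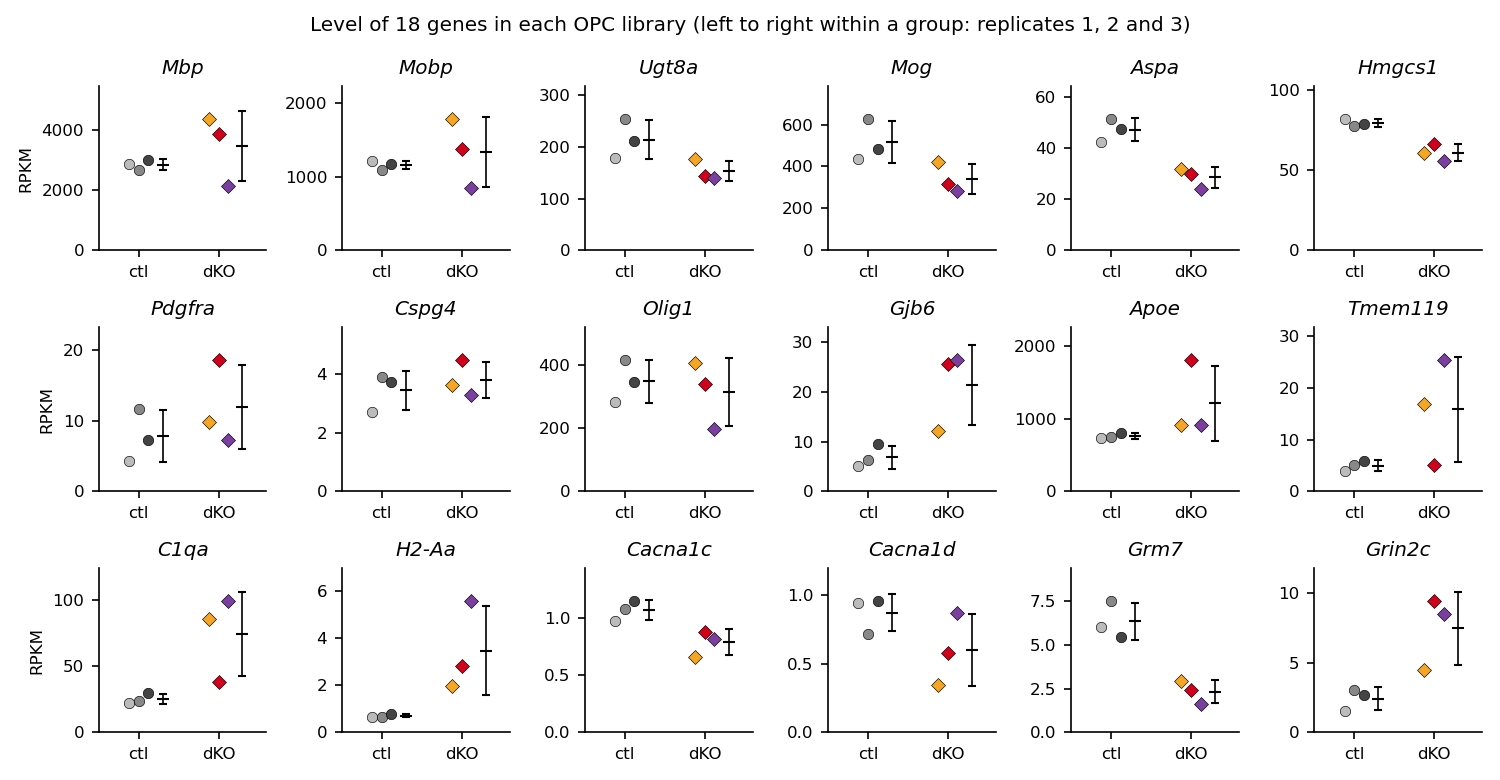
Level (RPKM, linear axes from 0) of 18 genes in each OPC library, with ctl replicates in grey and dKO replicates in colour from left to right, and the mean with its standard deviation beside each group (n = 3). Mbp and Mobp have dKO 1 and dKO 2 above and dKO 3 below the ctl libraries, Mog, Ugt8a, Aspa, Hmgcs1, Cacna1c and Grm7 have all dKO libraries below ctl, and Gjb6, C1qa, H2-Aa and Grin2c have all above.

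Cholesterol is made in oligodendrocytes themselves and limits the growth of myelin. Of the 34 tested genes of its synthesis and control, 27 were lower in dKO libraries, with a median log2 fold change of -0.21. Here 10 genes were lower and 2 higher at an unadjusted p under 0.05, and for 17 of the 34 the groups did not overlap, 15 of them lower, against 17.0% over all genes. The summed level was 642 to 679 RPKM in ctl and 533 to 620.2 RPKM in dKO libraries, without overlap. The differences were small and alike in several enzymes. Hmgcs1, which makes the precursor of mevalonate, had normalized counts of 6572, 6212 and 6337 in ctl and 4870.0, 5301 and 4457 in dKO libraries and a log2 fold change of -0.39 ± 0.12, and was the member that DESeq2 called. Lss, the enzyme that closes the sterol rings, had 1497, 1541 and 1377 in ctl and 1134, 1263 and 1088 in dKO libraries (-0.34 ± 0.10). Mylip, a ubiquitin ligase, was higher (0.90 ± 0.27), with normalized counts of 227, 152 and 209 in ctl and 384, 233 and 489 in dKO libraries, and the groups did not overlap. The most abundant member was Insig1, a sensor of sterols that made up 13.1% of the summed level, and its groups overlapped. Every dKO library had a median below those of the ctl libraries, with values of -0.22, -0.10 and -0.32 in dKO replicates 1, 2 and 3 and of -0.03 to 0.04 in ctl libraries, relative to the ctl mean on the log2 scale. When each library was left out in turn, the list median lay between -0.29 and -0.17, and the members at the unadjusted threshold numbered 7 without ctl replicate 1 or dKO replicate 3 and 17 without dKO replicate 2.

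Since most of these genes were lower, their promoters were read from RefSeq's sequences (GRCm38.p6), which cover the 250 bases before and 50 after the transcription start, for 26 of the 34 genes. The motif CCAAT, on either strand, was present in 20 of the 26 genes (76.9%), beside 42.6% of the 12226 tested genes with a promoter in the same table and 37.4% of all 32851 promoters. The sterol regulatory element written as TCACNCCAC, on either strand, was present in 1 of the 26, Hmgcs1, and in 1.24% of all promoters. Factors that bind CCAAT boxes are known to act with the sterol-regulated factor SREBP2 at such promoters. To show where these letters lie, the promoters are printed of the 3 genes of lowest p that were lower without overlap and whose window holds CCAAT, with each CCAAT of either strand and the sterol element in capitals.
Lss, chr10:76531355-76531654, plus strand: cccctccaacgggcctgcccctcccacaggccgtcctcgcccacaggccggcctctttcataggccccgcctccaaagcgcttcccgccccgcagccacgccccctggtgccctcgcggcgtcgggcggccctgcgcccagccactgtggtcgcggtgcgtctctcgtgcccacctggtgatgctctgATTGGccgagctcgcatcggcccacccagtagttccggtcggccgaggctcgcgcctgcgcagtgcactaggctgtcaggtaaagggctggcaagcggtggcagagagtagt
Hmgcs1, chr13:119690101-119690400, plus strand: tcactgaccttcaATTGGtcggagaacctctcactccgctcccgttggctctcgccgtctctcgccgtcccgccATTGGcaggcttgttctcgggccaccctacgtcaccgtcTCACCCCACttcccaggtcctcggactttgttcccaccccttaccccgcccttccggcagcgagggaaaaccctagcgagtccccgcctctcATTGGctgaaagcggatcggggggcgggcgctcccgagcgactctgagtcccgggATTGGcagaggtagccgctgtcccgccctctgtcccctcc
Msmo1, chr8:64733529-64733828, minus strand: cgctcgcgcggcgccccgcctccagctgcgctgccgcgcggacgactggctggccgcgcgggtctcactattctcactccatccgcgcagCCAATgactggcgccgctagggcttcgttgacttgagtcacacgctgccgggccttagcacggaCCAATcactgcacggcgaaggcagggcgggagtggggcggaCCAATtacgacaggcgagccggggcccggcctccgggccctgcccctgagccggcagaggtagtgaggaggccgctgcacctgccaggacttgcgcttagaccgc
The window of Lss held 1 CCAAT, that of Hmgcs1 4 and that of Msmo1 3. The sterol element of Hmgcs1 lies inside the stretch spanned by its CCAAT motifs. A match is a description of letters in these windows and was not tied to binding here.

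The other lipid lists showed no shared direction. For galactolipids and sphingolipids the median of 34 genes was 0.0034 and 18 were higher. The 3 members at an unadjusted p under 0.05 (8.82%, against 11.5% of all genes) were lower. Without dKO replicate 3, 0 members reached it in edgeR, without ctl replicate 2 the 1 that did was higher, and without dKO replicate 2 the 3 that did were higher. Ugt8a, which adds galactose to ceramide, had normalized counts of 14069, 20121 and 16667 in ctl and 13950.0, 11417 and 11117 in dKO libraries (-0.48 ± 0.18). Fa2h, the fatty acid 2-hydroxylase, had a log2 fold change of -0.52 ± 0.18 that was -0.35 without ctl replicate 2, and Cers2, which makes ceramides of very long chains, one of -0.38 ± 0.16. For all 3 the dKO libraries lay below the ctl libraries. Among 38 genes of fatty acid synthesis, elongation and transport (median 0.06, and 0.0021 without dKO replicate 2, 3 higher and 4 lower at the unadjusted threshold), the elongase Elovl6 (-0.45 ± 0.14) and the acyl-CoA synthetase Acsl1 (-0.43 ± 0.13) were lower, while Elovl2 (1.498 ± 0.38) and Acsbg1 (1.32 ± 0.42), which astrocytes express, were higher and peaked in dKO replicate 2. Among 26 genes of lipoproteins and lipid receptors (median -0.06, 3 higher and 6 lower), Apoe, the main lipid carrier of the brain, had RPKM values of 730.2, 749 and 805 in ctl and 916, 1813 and 915 in dKO libraries. Its groups did not overlap, yet dKO replicate 2 alone stood far above the others. The 9 members at the threshold were 5 without ctl replicate 1 or 2, with 2 higher and 3 lower in both cases. The transporter Abca8b (-0.69 ± 0.14) was lower, and the acyltransferase Lcat (0.81 ± 0.20) was higher.

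Genes of OPC identity were mostly higher, 31 of 39, with a median log2 fold change of 0.57 and 9 genes at the unadjusted threshold, all higher. The values followed dKO replicate 2, which had the highest dKO value for 34 of the 39 genes, and whose median member stood 1.14 above the ctl mean on the log2 scale, beside 0.29 and -0.05 in replicates 1 and 3 and -0.44 to 0.35 in ctl libraries. Without dKO replicate 2 the median was 0.16 and 3 genes reached the threshold, against 2 without ctl replicate 1 and 20 without dKO replicate 3. The gene of smallest p was Gpr37l1, an orphan receptor that astrocytes also express, with normalized counts of 1571, 2240.1 and 2765 in ctl and 3083, 6947 and 3634 in dKO libraries (1.06 ± 0.32). Serpine2, a secreted protease inhibitor, had a log2 fold change of 0.97 ± 0.31, and Lims2, an adaptor at integrin contacts, one of 0.32 ± 0.12 that was 0.21 without dKO replicate 1. The groups did not overlap for these 3 genes and for 4 of the 39 in all (10.3%, against 17.0% of all genes). Pdgfra and Cspg4 had log2 fold changes of 0.62 ± 0.41 and 0.14 ± 0.17, and that of Olig1 was -0.14 ± 0.27, and the groups of each overlapped.

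Genes of the committed and premyelinating stage had a median of -0.04 over 31 members, with 13 higher. At the unadjusted threshold there were 2 in each direction (12.9%, against 11.5% of all genes). The direction of this median rests on single libraries, since leaving out ctl replicate 2 gave 0.089, leaving out dKO replicate 1 gave 0.024 and leaving out dKO replicate 3 gave 0.04, and the 2 higher members were 0 without ctl replicate 1 or 3 in edgeR. Lower in all dKO libraries were Rnf122, a ubiquitin ligase (-0.74 ± 0.18), and the transcription factor Nfe2l3 (-0.63 ± 0.17). Higher at that threshold were Lims2 and Bmp4, a ligand that holds back differentiation, whose groups overlapped. Among 32 genes of Notch signalling and of the Id and Hes families, which also hold back differentiation, 26 were higher (median 0.24). At the unadjusted threshold 4 were higher and 1 lower (15.6%, against 11.5% of all genes). Lfng, a glycosyltransferase that tunes Notch receptors, had normalized counts of 249, 209.6 and 290.4 in ctl and 398, 562 and 559.5 in dKO libraries, with all dKO libraries above ctl (1.02 ± 0.18, adjusted p 0.234 in edgeR and 0.000942 in DESeq2). Numbl, a Numb-like inhibitor of Notch, was lower in all dKO libraries (-0.77 ± 0.16), from 421, 438 and 352 in ctl and 243, 264 and 200.1 in dKO. Id2 was higher (0.67 ± 0.19), as was Hey1 (0.39 ± 0.13), a Notch target, and Hes5, another target, had a log2 fold change of 1.83 ± 0.71 with overlapping groups. Leaving out dKO replicate 2 gave 12 genes at the threshold, 11 of them higher. Both Notch targets and Lfng are also expressed by astrocytes.

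All 38 astrocyte genes were higher in dKO libraries, with a median of 0.89, and 30 reached the unadjusted threshold. The groups did not overlap for 16, and DESeq2 called 13. The library order was that of the OPC genes in part, with dKO replicate 2 highest for 30 of the 38 genes and replicate 1 lowest for 34. Gjb6, the gap junction protein connexin 30 of astrocytes, had normalized counts of 234, 292 and 442 in ctl and 569, 1199 and 1238 in dKO libraries. All dKO libraries lay above ctl, and the log2 fold change was 1.64 ± 0.33. Gja1, connexin 43, had a log2 fold change of 1.08 ± 0.29, Gfap, the filament protein of astrocytes, 0.60 ± 0.14, and Mfge8, a secreted bridging protein for phagocytosis, 0.56 ± 0.11. Htra1, a secreted protease, had the smallest p, with 1701, 2198 and 2152 in ctl and 3695, 3620.3 and 3159 in dKO libraries (0.79 ± 0.13, adjusted p 0.228 in edgeR and 0.00042 in DESeq2). The summed astrocyte level was 1589 to 2044 RPKM in ctl and 2225 to 3309 RPKM in dKO libraries. The ratio of the means was 1.43, and 41.2% of the sum was Glul, glutamine synthetase, which oligodendrocytes make as well. Without dKO replicate 2 the median was 0.56, with 18 genes at the unadjusted threshold, and without ctl replicate 2 it was 0.85 with 19.

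Homeostatic microglia genes had the largest list median, 1.30, with 36 of 38 higher and 35 at the unadjusted threshold. DESeq2 called 21. Microglia are the resident macrophages of the brain, and the sort carried no beads for them. Tmem119, a surface protein particular to microglia among brain cells, had RPKM values of 3.94, 5.15 and 5.89 in ctl and 17.0, 5.14 and 25.4 in dKO libraries. dKO replicates 1 and 3 were high, whereas dKO replicate 2 was inside the ctl range, and this order held for the list, with dKO replicate 3 highest for 36 of 38 genes and replicate 2 lowest for 37. The median member of dKO replicate 2 stood 0.16 above the ctl mean on the log2 scale and that of ctl replicate 3 0.15, against 1.35 and 1.86 in dKO replicates 1 and 3. For 16 of the 38 genes all dKO libraries lay above all ctl libraries, against 7.41% of all genes. Fcer1g, a signalling chain of Fc receptors, had normalized counts of 59.5, 42.9 and 72.1 in ctl and 134, 125 and 212 in dKO libraries (1.42 ± 0.29). Ctss, a lysosomal protease of antigen presentation, had 567, 501 and 652 in ctl and 1771, 796 and 2044 in dKO libraries (1.42 ± 0.31). Mertk, a receptor for the uptake of dead cells that astrocytes share, had a log2 fold change of 0.95 ± 0.20, and Tyrobp, the adaptor of Trem2, one of 1.33 ± 0.29. The summed level of the list was 272 to 334.5 RPKM in ctl and 410.0 to 777 RPKM in dKO libraries, a ratio of 1.95, and 32.2% of it was Sparc, which endothelial cells and astrocytes also make. Without dKO replicate 3 the median was 0.90 with 24 genes at the threshold, and without dKO replicate 2 it was 1.59 with 35.

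Genes of the disease-associated microglial state, which appear when microglia meet damage, had a median of 0.62 over 31 members, with 15 at the unadjusted threshold, all higher. Itgax, an integrin chain that marks this state, had normalized counts of 1.75, 2.38 and 1.04 in ctl and 16.6, 28.1 and 20.3 in dKO libraries. It was high in all dKO libraries, dKO replicate 2 included, with a log2 fold change of 3.58 ± 0.54 that rests on few reads in ctl. Clec7a, a receptor for fungal glucans, had 6.999, 3.57 and 3.13 in ctl and 28.3, 10.9 and 33.2 in dKO libraries. Without dKO replicate 2 the list median was 0.39, and without ctl replicate 2, 9 members reached the threshold. The chemokines Ccl4 (1.73 ± 0.44) and Ccl3 (1.86 ± 0.48) were higher and had their dKO values closest to ctl in replicate 2.

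Genes of class II antigen presentation, which shows peptides to helper T cells, were higher for 11 of 14. H2-Aa, a chain of the class II complex, had normalized counts of 44.6, 44.1 and 51.2 in ctl and 131, 188 and 371 in dKO libraries (2.30 ± 0.38). H2-Ab1, its partner, had 56.0, 60.7 and 52.2 in ctl and 147, 195 and 355 in dKO libraries (2.04 ± 0.33), and H2-Eb1 had a log2 fold change of 2.47 ± 0.46. The invariant chain Cd74 had 96.2, 121 and 169 in ctl and 383, 424 and 1053 in dKO libraries. The counts of these 4 genes were at least as high in dKO replicate 2 as in replicate 1 and highest in replicate 3, whereas 37 of the 38 microglia genes were lowest in dKO replicate 2. Over all 14 class II genes, the lowest dKO value was that of replicate 1 for 7, of replicate 2 for 6 and of replicate 3 for 1, and the highest that of replicate 3 for 11. Of the 14 tested genes of the class II list, 6 were at the unadjusted threshold, all higher, and the median was 0.90, which was 0.42 without dKO replicate 3. Class I genes differed less, with a median of 0.32 over 24 members and 5 at the threshold. B2m, the shared light chain, had a log2 fold change of 0.54 ± 0.22, and its groups overlapped. Class I genes are near-identical copies, so reads may be split among them. Without each of 4 of the libraries in turn (ctl replicates 1 and 2 and dKO replicates 1 and 3), 0 class I genes reached the threshold.

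Complement genes, cytokines and immune receptors mostly had dKO replicate 3 highest, for 18 of 32, 41 of 55 and 31 of 39 genes. Immediate early and dissociation response genes, which tissue handling can induce, had the library order of the microglia genes as well, with dKO replicate 3 highest for 28 of 43 and replicate 2 lowest for 35. Their summed level was 5306 to 5883 RPKM in ctl and 6496, 4955 and 6966 RPKM in dKO replicates 1, 2 and 3, and their part in the immune values was not tested. Among 32 complement genes (median 0.27, 7 higher and 0 lower at the unadjusted threshold), the chains of C1q, which start the classical pathway and which microglia make in the brain, had log2 fold changes of like size, 1.57 ± 0.31 for C1qa, 1.31 ± 0.29 for C1qb and 1.30 ± 0.31 for C1qc. C1qa had RPKM values of 22.4, 23.6 and 29.7 in ctl and 85.8, 38.6 and 99.7 in dKO libraries, with dKO replicate 2 nearest to ctl and still above it. For the complement list the median was 0.11 without dKO replicate 3, and 14 genes reached the threshold when dKO replicate 2 was left out, 12 of them higher. Among 55 genes of cytokines, chemokines and their receptors (median 0.57), 27 were higher at the threshold, against 9 without dKO replicate 3 and 17 without ctl replicate 2. Il1b, interleukin 1 beta, had normalized counts of 49.0, 22.6 and 30.3 in ctl and 127, 82.6 and 185 in dKO libraries (1.93 ± 0.39), and Il1a had 92.7, 92.9 and 102 in ctl and 331, 132 and 477 in dKO libraries (1.70 ± 0.41). Among 39 toll-like, Fc and other immune receptors (median 1.06), 22 reached the threshold and 37 were higher. Without dKO replicate 3 or ctl replicate 2 the first count was 12 or 13. Sirpa, the receptor for the signal against phagocytosis, was high in all dKO libraries, with 721, 716 and 866 in ctl and 1251, 1577 and 1826 in dKO libraries (1.01 ± 0.16, adjusted p 0.18 in edgeR and 4.99e-05 in DESeq2). The lipopolysaccharide receptor Cd14 had a log2 fold change of 1.76 ± 0.41, and the RNA sensor Tlr13 one of 2.20 ± 0.51. The scarce genes of border macrophages and blood leukocytes, of which 13 of 34 in the table were tested, had a median of 0.71, and Mrc1, the mannose receptor of border macrophages, was higher in all dKO libraries (0.71 ± 0.21).

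Of 58 interferon response genes, 48 were higher (median 0.29), and 5 reached the threshold, all of them higher (8.62%, beside 6.27% of all genes that were higher). Those genes include Ifit3 (0.68 ± 0.18) and its near-identical copy Ifit3b (0.90 ± 0.27), whose counts may share reads, and the transcription factor Irf1 (0.45 ± 0.15). dKO replicate 3 was highest for 50 of the 58, and without it the median was 0.01. The threshold was reached by 22 without dKO replicate 2.

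Of 100 tested markers of further cell types, 89 had a log2 fold change above 0 (median 0.34). At the unadjusted threshold 7 were higher and 1 lower, 8 of 100 against 11.5% of all genes, and 39 were higher and 1 lower when dKO replicate 2 was left out. All 26 endothelial genes had a log2 fold change above 0 (median 0.39), and 2 reached the unadjusted threshold, Mfsd2a, a lipid transporter of the blood-brain barrier (0.52 ± 0.15), and the sialomucin Emcn (0.83 ± 0.35). Their summed level was 1414 to 2048 RPKM in ctl and 2639, 1478 and 3048 RPKM in dKO replicates 1, 2 and 3, the same library order as for the microglia genes. As many as 22 of the 26 reached the threshold without dKO replicate 2, whereas the median was 0.14 with 19 of 26 above 0 when dKO replicate 3 was left out. Pericyte and smooth muscle genes (16, median 0.23) and fibroblast and meningeal genes (15, median 0.44) had 0 genes at the unadjusted threshold in edgeR, and DESeq2 gave 0 and 1 genes at an unadjusted p under 0.05. In edgeR, 7 and 4 genes reached it without dKO replicate 2, and the medians were 0.077 and 0.14 without dKO replicate 3. Neuronal genes (22, median 0.38) had 3 higher, among them Syt1, a sensor of vesicle release (0.86 ± 0.25), and 1 lower, Nefh (-0.77 ± 0.25). The neuronal median was 0.18 without dKO replicate 2, and 8 genes reached the threshold without dKO replicate 3. Ependymal and choroid plexus genes had a median of 0.09 over 16 members, and their summed level, 84.9% of it Ttr, was 9805 to 21872 RPKM in ctl and 14996 to 15761 RPKM in dKO libraries. The direction of this median rests on single libraries, since it was -0.13 without ctl replicate 2 (14 of 16 lower), -0.011 without ctl replicate 3 and -0.027 without dKO replicate 3 (9 of 16 lower in both). The part of these cells in the lists above was not tested.

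**Figure D5:**
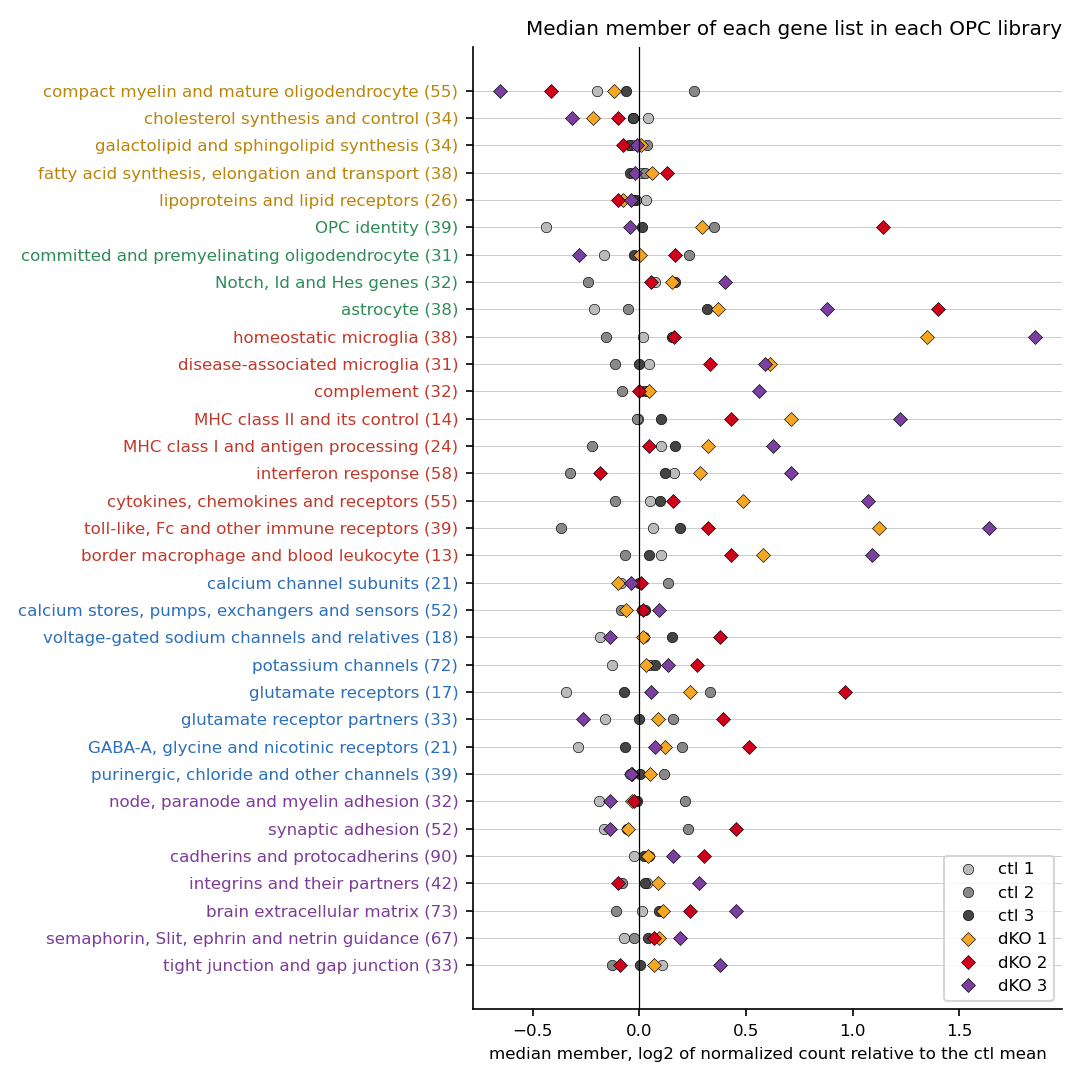
For each list (members tested in parentheses), the median over members of the log2 normalized count relative to the ctl mean, with 1 point for each library (circles ctl, diamonds dKO) and label colours for the 5 classes. In the microglia and immune receptor lists dKO 1 and dKO 3 lie far to the right and dKO 2 near the ctl libraries, in the OPC, astrocyte and glutamate receptor lists dKO 2 lies farthest to the right, and in the compact myelin list dKO 2 and dKO 3 lie to the left.

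The 3 dKO libraries thus did not depart from ctl in the same way. Replicate 2 had the highest median of the 3 in the astrocyte, OPC and glutamate receptor lists, replicate 3 in the endothelial list and in every immune list but that of disease-associated microglia, and replicate 1 was close to ctl in compact myelin and high in microglia genes. Among ctl libraries, replicate 1 had the lowest and replicate 2 the highest medians of the OPC, myelin and glutamate receptor lists. These are descriptions of single libraries, and cells of 2 mice make each. With dKO replicate 2 left out, several of the genes described here had log2 fold changes of smaller size, which were 0.14 for Pdgfra, 0.27 for Apoe, 0.65 for Acsbg1, 0.62 for Gpr37l1, 0.51 for Serpine2, 0.87 for Hes5, 0.44 for Gria1, 0.48 for Gabrb1, 0.75 for Gabrg1, 0.61 for Kcnd2, 0.31 for Asic2, 0.51 for Sparcl1, 0.38 for Nrcam and -0.37 for Scn4b. The medians of metabotropic receptors and partners (-0.04) and of synaptic adhesion (-0.09) were then below 0, and those of the ion channel and cell adhesion classes were 0.04 and 0.098. With dKO replicate 3 left out, the log2 fold changes were 0.35 for B2m, 0.46 for Mrc1, 0.28 for Irf1 and 0.33 for Mfsd2a.

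Ion channels are the class to which the deleted genes belong. Of 21 tested subunits of calcium channels, 10 were higher, and 4 were lower and 2 higher at the unadjusted threshold (28.6% against 11.5% over all genes). The targeted Cacna1c is among the 4 lower, so this share counts a gene that the design chose. Lower in all dKO libraries were Cacnb4, an auxiliary beta subunit (-0.45 ± 0.11), with normalized counts of 1424, 1565 and 1413 in ctl and 1138, 1134 and 938 in dKO libraries, the T-type pore Cacna1h (-0.44 ± 0.13), the auxiliary subunit Cacna2d4 (-0.67 ± 0.21), and Cacna1c itself. Higher were Cacng8, an auxiliary subunit of AMPA receptors (1.41 ± 0.45), and the T-type pore Cacna1i (1.47 ± 0.62), which are both scarce. Cacna1i had mean normalized counts of 6.31 in ctl and 17.3 in dKO libraries, so it passed the filter of 10 only through the dKO libraries. The most abundant member, Cacng7, is of the same gene family as Cacng8. It made up 48.2% of the summed level, and its groups overlapped. The median of the list was -0.04, and it was 0.027, 0.011 and 0.083 without ctl replicate 2, ctl replicate 3 and dKO replicate 1. The summed level of the list was 66.4 to 78.7 RPKM in ctl and 58.2 to 91.7 RPKM in dKO libraries. Among 52 genes of calcium stores, pumps, exchangers and sensors (median 0.01), 4 reached the unadjusted threshold, 7.69% against 11.5% over all genes, and 7 had groups without overlap, 13.5% against 17.0%. Of the 4, 2 were higher, Camk2b, a calmodulin-dependent kinase (0.73 ± 0.20), and Mcub, a brake on mitochondrial calcium uptake (0.70 ± 0.29), and 2 lower, Trpc1, a cation channel (-0.41 ± 0.11), and the lysosomal calcium channel Mcoln1 (-0.31 ± 0.10). The groups did not overlap for these 4 genes. In this list 9 genes reached the threshold without dKO replicate 2, 6 of them higher.

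Glutamate receptors, through which OPCs sense synaptic input, were mostly higher, 15 of 17 channel subunits, with a median of 0.43. The unadjusted threshold was reached by 17.6% of them, against 11.5% of all genes. The groups did not overlap for 2 of the 17 (11.8%, against 17.0% of all genes). At the unadjusted threshold were Grin2c, an NMDA receptor subunit of astrocytes and OPCs (1.62 ± 0.33), Grik3, a kainate receptor subunit (1.52 ± 0.40), and Gria1, an AMPA receptor subunit (0.94 ± 0.36). Grin2c had normalized counts of 135, 270.3 and 239 in ctl and 395, 833 and 748 in dKO libraries, with all dKO libraries above ctl. The list followed dKO replicate 2, which was highest for 14 of the 17 genes, and the median was 0.16 with 2 genes at the threshold when this library was left out. Among 33 metabotropic receptors and partners of glutamate receptors (median 0.12, 3 higher and 4 lower), Grm7, a metabotropic receptor, had the smallest p of the whole class. It had 620.3, 773 and 562 in ctl and 300.0, 249.5 and 166 in dKO libraries, all dKO libraries below ctl, a log2 fold change of -1.45 ± 0.22 and an adjusted p of 0.18 in edgeR and 1.08e-05 in DESeq2. Prrt1, an AMPA receptor partner, was also lower (-0.67 ± 0.13), from 1560.0, 1951 and 1753 in ctl and 1037, 1262 and 996 in dKO libraries. GABA-A, glycine and nicotinic receptors had 14 of 21 members higher (median 0.33). The threshold was reached by 3 (14.3%, against 11.5% of all genes), among them the GABA-A receptor subunits Gabrb1 (0.79 ± 0.24) and Gabrg1 (1.37 ± 0.46). Their median was 0.20 without ctl replicate 1 or dKO replicate 2, with 1 member at the threshold, 0.10 without ctl replicate 3 and 0.53 without dKO replicate 3.

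Of 72 potassium channel genes, 46 were higher (median 0.21). At the unadjusted threshold 8 were higher and 2 lower, a share of 13.9%, against 11.5% of all genes. The groups did not overlap for 8 of the 72 (11.1%, against 17.0% of all genes). Leaving out ctl replicate 2 gave a median of 0.087, and leaving out dKO replicate 2 gave 0.078. Kcnn2, a calcium-activated channel, had normalized counts of 44.6, 65.5 and 89.8 in ctl and 104, 239 and 213 in dKO libraries (1.48 ± 0.37). The A-type channel Kcnd2, a marker of OPCs, had a log2 fold change of 1.26 ± 0.45. The most abundant member was Kcnj10, the inward rectifier Kir4.1 of glia, at a mean of 113 RPKM, and its groups overlapped. Among 18 voltage-gated sodium channels and relatives (median 0.21), 2 reached the threshold (11.1%, against 11.5% of all genes), and 0 did in edgeR without dKO replicate 2. Asic2, an acid-sensing channel, was higher (0.92 ± 0.38) and Scn4b, a beta subunit, lower (-0.56 ± 0.24), and 85.7% of the summed level was Hcn2, a pacemaker channel of oligodendrocytes. Among 39 purinergic, chloride and other channels (median 0.03, 5 higher and 4 lower), Ttyh3, a chloride channel family member, was higher (0.78 ± 0.18) and the chloride transporter Clcn5 lower (-0.41 ± 0.12). Only 3 of these 39 reached the threshold without ctl replicate 2 and 5 without dKO replicate 3, and both medians were -0.054, with 24 of 39 lower. Hvcn1, a proton channel of macrophages, had 14.9, 13.1 and 8.36 in ctl and 59.6, 13.6 and 78.1 in dKO libraries, in the order of the microglia genes.

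Within cell adhesion, the largest share of members at the unadjusted threshold among lists was that of integrins and their partners, 23.8% (7 higher and 3 lower of 42), followed by guidance molecules (22.4%, 10 higher and 5 lower of 67) and extracellular matrix (21.9%, 14 higher and 2 lower of 73). These counts were 4 for integrins without ctl replicate 2, 23 for guidance genes without dKO replicate 2 and 10 for matrix genes without ctl replicate 1. Without dKO replicate 3 the medians were 0.047 for integrins in place of 0.13, 0.065 for guidance genes in place of 0.14 and 0.14 for matrix genes in place of 0.24. Of the 42 integrin genes, dKO replicate 3 had the highest dKO value for 26 and replicate 2 the lowest for 27, the order of the microglia genes. Itgax, described above, led the integrins, though it passed the filter only through its dKO counts. Itgb5, a partner of the alpha v chain, was higher (0.50 ± 0.16), and Ptk2, focal adhesion kinase, lower in all dKO libraries (-0.45 ± 0.12), from 2645, 3204 and 2742 in ctl and 2191, 2091 and 1989 in dKO libraries. Matrix genes had the highest median of the class, 0.24. Bgn, the proteoglycan biglycan, had 731, 586 and 816 in ctl and 1307, 1012 and 1770.5 in dKO libraries (0.94 ± 0.21), and Sdc3, a syndecan, had 1052, 1468 and 1579.5 in ctl and 2081, 3099.5 and 2142 in dKO libraries (0.84 ± 0.20). The groups did not overlap for either. The summed matrix level was 1469.9 to 1656 RPKM in ctl and 1711 to 2308 RPKM in dKO libraries, without overlap, and its most abundant member was Sparcl1, a secreted protein of astrocytes (0.95 ± 0.33). Among guidance genes, the secreted netrin Ntn1 (0.43 ± 0.12) and the ephrin Efnb1 (0.83 ± 0.23) were higher and the transmembrane semaphorin Sema6a lower (-0.58 ± 0.17), each without overlap.

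Adhesion genes of nodes, paranodes and myelin were evenly divided, 16 higher and 16 lower of 32. The threshold was reached by 5 (15.6%, against 11.5% of all genes), by 9 without dKO replicate 1 and by 2 without ctl replicate 2. Epb41l3, the band 4.1 protein of the paranode, was lower in all dKO libraries (-0.54 ± 0.17), as was Mog, and Omg, a glycoprotein of oligodendrocytes, was lower with overlap (-0.47 ± 0.17). Sptbn4, a spectrin of nodes (0.80 ± 0.23), and Nrcam, a node adhesion molecule (0.89 ± 0.36), were higher. The summed level of this list was 2953 to 4239 RPKM in ctl and 2212 to 3139.7 RPKM in dKO libraries, 32.4% of it Cldn11, the claudin of myelin. Synaptic adhesion genes had 35 of 52 higher (median 0.15), with 3 higher and 2 lower at the threshold, below the background share at 9.62%, and 9 reached it without dKO replicate 3 and 3 without ctl replicate 1 or 3. Tenm2, a teneurin, was higher in all dKO libraries (0.81 ± 0.24), and Ptprd, a receptor phosphatase, lower in all (-0.55 ± 0.18), from 15995, 22328 and 16235 in ctl and 13504, 12488 and 11319 in dKO libraries. Cadherins and protocadherins reached the threshold at 7.78% (6 higher, 1 lower of 90), and Cdh13, an anchored cadherin without a cytoplasmic part, led them (0.85 ± 0.18). These 7 were 4 without ctl replicate 2 or 3, and the median of 0.16 was 0.083 without dKO replicate 2. Among 33 tight and gap junction genes (median 0.09), Jam2, a junctional adhesion molecule, was higher in all dKO libraries (0.50 ± 0.12). The median of this list was 0.30 without ctl replicate 1, with 11 members at the threshold in place of 6. It was -0.0087 when ctl replicate 2 was left out and -0.0021 when dKO replicate 3 was, with 17 of 33 lower in both cases.

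Among the protein-coding genes with the smallest p whose groups did not overlap, several belonged to none of the lists. Ppt1, a lysosomal thioesterase, had the smallest p of those that were higher, with 1916, 1961 and 1901 in ctl and 3402, 3392 and 3042 in dKO libraries (0.77 ± 0.10, adjusted p 0.117 in edgeR and 2.14e-08 in DESeq2). Cables1, a cyclin-dependent kinase partner, had a log2 fold change of 1.19 ± 0.16, Fam20a, a secretory pathway pseudokinase, 1.22 ± 0.20, Ppp1r3g, a glycogen-targeting phosphatase subunit, 1.69 ± 0.28, and Scara3, a scavenger receptor, 1.31 ± 0.23. Of the genes that were lower, Ldb3, a protein of actin-based structures, had 375, 438 and 442 in ctl and 119, 97.1 and 157 in dKO libraries (-1.75 ± 0.20, adjusted p 0.0714 in edgeR and 3.34e-11 in DESeq2), and Dusp26, a phosphatase, had 2429, 3370.2 and 2719 in ctl and 1251, 1172 and 892 in dKO libraries (-1.36 ± 0.17, DESeq2 adjusted p 1.41e-08). The histone deacetylase Hdac1 had 993, 1080.1 and 976 in ctl and 443, 553 and 502 in dKO libraries, while its processed pseudogene Hdac1-ps had 61.2, 69.1 and 54.3 in ctl and 203, 176 and 243 in dKO libraries. The copies share sequence, so the values of both are uncertain. Gss, the enzyme that completes glutathione, was lower at -0.74 ± 0.13, as were Anxa8 (-2.28 ± 0.39), Trim36 (-0.96 ± 0.17), Ccdc28b (-0.97 ± 0.15) and Duxbl1 (-1.12 ± 0.20). The 10 genes of this kind in each direction, 1520401A03Rik included, had log2 fold changes of 0.77 to 3.58 when higher and sizes of 0.74 to 6.49 when lower.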

How the data were processed

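Raw read counts per Ensembl gene, which the authors deposited for each library, were used for the 6 OPC libraries. According to the study's methods the reads had been aligned with HISAT2 to GRCm38 and counted with featureCounts, while the labels name mm39. The deposited coordinates of Lss, Hmgcs1 and Msmo1 differ from those of the same genes in GRCm38.p6, the build of the promoter table, so the 2 sets of coordinates were never combined. The 6 FPKM columns of the same table and the authors' columns of fold changes and p-values were not used, nor was the neuron table. Total counts were 14935963 to 19812274 per library. Replicates of a group differed by more than sampling noise (chi-square per gene of 15.7 or more for every pair).

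Counts were normalized by the trimmed mean of M values over the 17364 genes whose normalized counts averaged 10 or more, and dKO and ctl libraries were compared with edgeR 4.0.16 (quasi-likelihood F test, R 4.3.3) with Benjamini-Hochberg adjustment at 0.05. DESeq2 1.42.0, other normalizations and filters, a replicate block and leaving out each library were alternatives. RPKM values were computed from the normalized counts and the deposited gene lengths. In counts simulated for this comparison, 195 of 200 genes changed by 2 on the log2 scale were called, with 6 unchanged genes, over 17364 genes. By the study's methods the 3 libraries of a group came from 6 mice, so p-values measure the spread between pools of 2 mice, and batches are not given in the sources used here. No p-values are given for summed levels, since they are scores over chosen members. A two-sided permutation test of 3 libraries against 3 cannot give a p under 0.1.

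The gene classes, their lists and the marker genes were chosen with earlier results of these data known. Genes were named by rule as the 2 of highest level and the 3 of smallest p in each list, all genes past the adjusted threshold, the 10 higher and 10 lower protein-coding genes of smallest p without overlap between groups, Cacna1c, Cacna1d, Pdgfra, Cspg4, Olig1 and Mbp. Other named genes were chosen after their values were seen. Some genes that the rule names are not reported here.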

Additional observations from a re-analysis of the deposited data

How the results depend on the processing

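Genes past the adjusted threshold numbered 293 in DESeq2, 87 without a filter and 27 with a replicate block, beside 1 in the edgeR test as reported, and 1 to 199 when each library was left out, 199 of them without dKO replicate 2. At an unadjusted p under 0.05, leaving out each library gave 1106 to 2292 genes, 630 to 1394 higher and 476 to 898 lower, the fewest without ctl replicate 2. Without a filter 1685 were higher, and 972 genes had an unadjusted p under 0.02. Leaving out each library gave 26 to 60 members at the unadjusted threshold in the myelin and lipid class, 31 to 55 in the glial and 66 to 169 in the immune class, and medians of 0.093 to 0.23 in cell adhesion. In place of the sum, the median RPKM over the members was taken in each library, a middle level that can fall on different genes and so is not the median of the fold changes, and its ratio of dKO over ctl means was 1.32 for the glial, 1.57 for the immune, 1.18 for the ion channel and 1.18 for the cell adhesion class. The log2 fold change of Cspg4 changed sign without ctl replicate 1 (-0.0065, against 0.24 at most). The log2 fold change of Olig1 did so without ctl replicate 2 (0.0045) and without dKO replicate 3 (0.093, against -0.37 at the lowest), and the log2 fold change of Mobp without dKO replicate 1 (-0.060, against 0.44 at most). The causes were not tested. Replicate numbers did not pair the libraries, since the deviations from the group means of libraries of the same number correlated over genes at -0.113, 0.155 and 0.12. The fit with the block gave 2025 genes at an unadjusted p under 0.05, 1228 of them higher. Fits with other filters were not tabulated for single genes.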

Other observations

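Long noncoding RNAs and genes of uncertain standing were called lower more often than coding genes, a difference of shares that was not tested. Of 1695 tested lncRNAs, 36 were higher and 139 lower (8.20%) at an unadjusted p under 0.05 in edgeR, with a median log2 fold change of -0.18. Of 425 genes of the class TEC, whose existence is still to be established, 4 were higher and 60 lower (14.1%), with a median of -0.38. The 14463 protein-coding genes had 1000 higher (6.91%) and 691 lower (4.78%), with a median of 0.02. The 557 processed pseudogenes had 37 higher (6.64%) and 14 lower (2.51%). The 298 genes above 100 RPKM had 24 higher (8.05%) and 15 lower (5.03%). The 989 genes up to 0.3 RPKM had 66 (6.67%) and 39 (3.94%). Over all tested genes the shares were 6.27% higher and 5.27% lower.

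Immediate early and dissociation response genes, which are induced by neuronal activity and by tissue handling, were higher for 38 of 43, with a median of 0.27. At the unadjusted threshold 8 were higher and 1 lower (20.9%, against 11.5% of all genes). Ier3 had normalized counts of 517, 394 and 519 in ctl and 816, 736 and 954 in dKO libraries. The log2 fold changes were 0.81 ± 0.15 for Ier3, 0.52 ± 0.13 for the nuclear receptor Nr4a3 and 0.94 ± 0.24 for the phosphatase Dusp4, each without overlap between the groups. Without dKO replicate 2, 18 of the 43 reached the threshold, all higher, and dKO replicate 3 had the highest dKO value for 28 genes and replicate 2 the lowest for 35, the order of the microglia genes. Without dKO replicate 3 the median was 0.074 and 5 reached the threshold, as did 5 without ctl replicate 2. All 13 mitochondrially encoded genes had log2 fold changes above 0 (median 0.39). The threshold was reached by 1 of them, mt-Atp6 (0.46 ± 0.16), a share of 7.69% against 11.5% of all genes. Without dKO replicate 3, 5 reached it, whereas the median was 0.18 without dKO replicate 2. Their summed level was 25952 to 32801 RPKM in ctl and 39558, 50377 and 30543 RPKM in dKO replicates 1, 2 and 3. Of 5 erythrocyte genes 4 were higher, and Hba-a1 (0.91 ± 0.30) and Hbb-bt (1.49 ± 0.54), hemoglobin chains, reached the threshold.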
